A study of Mus musculus with 47 samples.

Results

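The gene set described here was the core of the perineuronal net, as 10 genes matched by symbol and Ensembl identifier in the cortical RNA-seq tables, with no filter on expression. These were *Acan*, *Bcan*, *Ncan*, *Vcan*, *Hapln1*, *Hapln4*, *Tnr*, *Ptprz1*, *Has2* and *Has3*, and all 10 were found among the 53068 genes that the TPM and count tables share. The study depleted microglia by diet and asked whether nets and cortical transcripts vary over the day and whether microglia are needed for it. All mice were young adult C57BL/6J males, group-housed under alternating light and dark phases of 12 h, with 1 cortex library per mouse. The control group (23 mice) ate control chow, and the PLX5622 group (24 mice) ate chow with 1200 ppm of the CSF1R inhibitor PLX5622 for 10 days. Brains were taken at Zeitgeber times ZT2, ZT6 and ZT10 in the light phase and ZT14, ZT18 and ZT22 in the dark phase, with 4 mice per diet and time except for 3 control mice at ZT14.

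Perineuronal nets are lattices of extracellular matrix around the soma and proximal dendrites of certain neurons, in cortex most often parvalbumin interneurons. Hyaluronan, spun out by synthases in the plasma membrane, forms the backbone, lecticans (chondroitin sulfate proteoglycans) bind it, link proteins lock the lecticans to it, and tenascin-R crosslinks lecticans at their other end. Neurons, astrocytes and oligodendrocyte precursors make different parts of this matrix, and enzymes from glia, microglia among them, can cut it. Transcript level is not net density, and the staining of nets was not analysed here.

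Depletion was seen in *Csf1r*, the receptor that microglia need to survive, which lay between 31.7 and 84.4 TPM (median 49.3) in control mice and between 0.192 and 10.1 TPM (median 3.93) in PLX5622 mice, with no overlap. All 12 microglial markers fell, as did *Pf4*, the only 1 of 6 border macrophage markers above 1 TPM on average, and the microglial summed level ranged from 473 to 729 TPM in control mice and from 21.6 to 115 TPM in PLX5622 mice. Total counts per library lay between 16597987 and 27626161, and mitochondrial transcripts took 6.46% to 10.0% of them. PLX5622 libraries were deeper, with a median of 21476968 counts against 18314954 in control libraries. The labelled tissue was checked by 7 excitatory neuron markers such as *Slc17a7* and *Camk2a*, which summed to between 2817 and 4970 TPM in the 47 libraries. Markers of choroid plexus (71 to 1280 TPM) and of striatal neurons (203 to 1087 TPM) also varied widely between libraries.

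The net genes spanned a wide range of levels on the TPM scale, which corrects for transcript length. *Bcan* (brevican) was the most abundant with 142 ± 12.6 TPM (SD, n = 47), followed by *Ptprz1* with 54.3 ± 8.41, *Ncan* (neurocan) with 41.1 ± 5.63 and *Hapln4* with 40.5 ± 8.61 TPM. *Tnr* had 16.9 ± 4.54 and *Hapln1* 16.4 ± 3.70 TPM. *Vcan* (versican) had 2.24 ± 0.611 TPM, and *Has3* with 0.531 ± 0.165, *Acan* with 0.497 ± 0.180 and *Has2* with 0.0782 ± 0.0595 TPM lay under 1 TPM, the mean required for the main tests. Thus 7 of the 10 genes passed the filter, and the other 3 were tested without it.

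The order of the levels was firm apart from 3 pairs of neighbours. *Bcan* exceeded *Ptprz1*, *Ptprz1* exceeded *Ncan*, and *Hapln4* exceeded *Tnr* in all 47 libraries. *Ncan* exceeded *Hapln4* in 27 of 47, *Tnr* exceeded *Hapln1* in 26 of 47, and *Has3* exceeded *Acan* in 29 of 47. These pairs did not differ beyond their spread in TPM. FPKM was also computed from the counts and the exon length of each gene. On that scale *Ptprz1* came after *Ncan* (32.8 FPKM) and *Hapln4* (25.3 FPKM). *Ncan* exceeded *Hapln4* in 44 of 47 libraries there, and *Tnr* exceeded *Hapln1* in all 47. The place of *Ptprz1* in the order thus depended on the scale. So did the distances between *Tnr* and *Hapln1* and between *Ncan* and *Hapln4*. Salmon's TPM weighs the isoforms of a gene and the FPKM used here does not, and the part of this in the order was not tested.

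**Figure D1:**
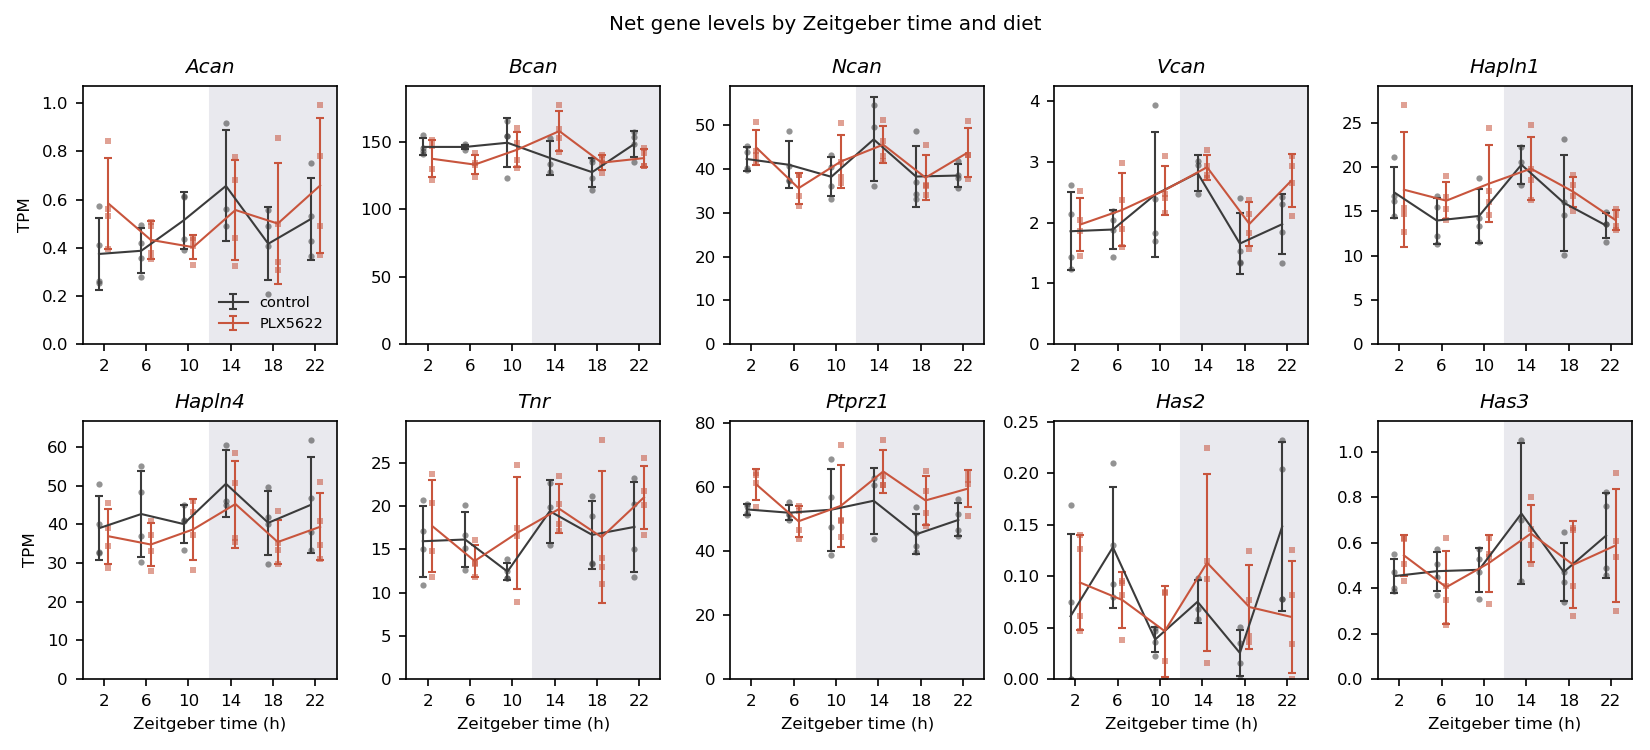
TPM of each net gene (y axis, from 0, scaled per gene) against Zeitgeber time in hours, with the dark phase shaded, control mice as grey circles and PLX5622 mice as red squares, 1 point per mouse, and lines with bars for the mean ± SD of 4 mice (3 in control ZT14). The diets overlap in every panel, *Bcan* lies near 142 TPM and *Has2* under 0.25 TPM.

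Each lectican gene has a link protein gene as its neighbour (GENCODE M21, GRCm38), with no coding gene between them. *Acan* (chr7:79053483-79115099, plus strand) ends 2 bases before *Hapln3*, and *Ncan* (chr8:70093085-70120873, minus strand) lies 2.2 kb from *Hapln4* (chr8:70083457-70090862, plus strand). *Vcan* (chr13:89655312-89742509, minus strand) lies 43.7 kb from *Hapln1* (chr13:89539796-89611652, plus strand), and *Bcan* (chr3:87987531-88000230, minus strand) lies 21.5 kb from *Hapln2*. Only *Bcan* and *Hapln2* share a strand. In TPM the levels of *Ncan* and *Hapln4* lay close, as did *Acan* and *Hapln3* (0.614 ± 0.322 TPM). *Vcan* had 2.24 TPM beside 16.4 in *Hapln1*, and *Bcan* 142 TPM beside 18.1 ± 5.08 in *Hapln2* (SD, n = 47). The remaining genes stand apart from each other: *Tnr* at chr1:159523769-159931729 and *Ptprz1* at chr6:22875502-23052916 on the plus strand, *Has2* at chr15:56665627-56694539 on the minus strand and *Has3* at chr8:106870242-106884566 on the plus strand.

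The proximal promoters were searched for the letters that clock factors and their outputs bind, since the study asked about rhythm. RefSeq (GRCm38.p6) gave the 250 bases before the annotated start for 7 of the 10 genes, that is for *Acan*, *Bcan*, *Ncan*, *Vcan*, *Hapln1*, *Tnr* and *Ptprz1*. None held the E-box CACGTG bound by CLOCK and BMAL1, the D-box TTATGTAA (TTACATAA on the other strand) bound by DBP and NFIL3, or the full cAMP response element TGACGTCA. Among 32851 windows of that length, 6.02% held the E-box, 0.82% the D-box and 1.55% the response element. No match says only that these letters are not in this window.

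The windows of 3 genes are shown for the results below, *Acan* and *Tnr* because their levels varied together between mice and *Hapln1* because its diet difference depended on the quantification. All are in lower case because no searched motif matched, and all run 5′ to 3′ on the plus strand (*Acan* chr7:79052976-79053225, *Tnr* chr1:159523519-159523768, *Hapln1* chr13:89540386-89540635). They differ in base composition, with 74.4% G and C in *Acan*, 46.8% in *Tnr* and 54.4% in *Hapln1*, against a median of 52.4% over all windows.
Acan: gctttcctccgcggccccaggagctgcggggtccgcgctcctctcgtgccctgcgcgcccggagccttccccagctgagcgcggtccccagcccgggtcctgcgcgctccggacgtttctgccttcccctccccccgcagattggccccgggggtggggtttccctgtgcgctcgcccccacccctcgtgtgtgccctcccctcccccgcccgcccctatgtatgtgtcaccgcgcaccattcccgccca
Tnr: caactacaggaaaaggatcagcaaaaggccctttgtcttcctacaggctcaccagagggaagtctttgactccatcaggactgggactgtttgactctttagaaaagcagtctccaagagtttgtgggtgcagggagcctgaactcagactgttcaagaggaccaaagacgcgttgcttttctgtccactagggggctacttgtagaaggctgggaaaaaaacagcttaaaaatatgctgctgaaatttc
Hapln1: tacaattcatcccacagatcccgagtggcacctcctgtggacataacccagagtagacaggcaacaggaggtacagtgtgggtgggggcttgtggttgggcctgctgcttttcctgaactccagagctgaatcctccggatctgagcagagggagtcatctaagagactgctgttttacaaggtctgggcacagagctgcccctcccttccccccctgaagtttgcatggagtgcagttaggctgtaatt

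Diet was compared over all Zeitgeber times with limma on log2(TPM + 1), with time as a 24-h cosine and sine and with Benjamini-Hochberg adjustment over all genes. None of the 10 net genes passed an adjusted p of 0.05, where 3.45% of 14580 genes did (0.871% higher and 2.58% lower in PLX5622 mice), as did 2.12% of 33748 genes in the fit without a filter that gave *Acan*, *Has2* and *Has3*. Only *Ptprz1* had an unadjusted p under 0.05, which 2367 of the 14580 genes had. The differences ran from -0.15 (*Hapln4*) to 0.16 (*Ptprz1*) on the log2 scale, with a median of 0.04, and the median over all genes tested was 0.03. Summed over the 10 genes, control libraries held 259 to 358 TPM (median 312) and PLX5622 libraries 267 to 382 TPM (median 311). In bulk tissue, fewer cells of a type and less RNA per cell cannot be told apart.

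Among the lecticans, *Acan* encodes aggrecan, the lectican most typical of nets. It ranged from 0.208 to 0.919 TPM (median 0.436) in control mice and from 0.309 to 0.992 TPM (median 0.466) in PLX5622 mice, from 22 to 92 counts per library, and only 1 PLX5622 library exceeded every control library. The difference on log2(TPM + 1) was 0.05 ± 0.05 (SE), with adjusted p = 0.762 (limma). This scale shrinks the differences and intervals of genes under 1 TPM. DESeq2 on the counts gave 0.08 ± 0.12 (SE, adjusted p = 0.795), with a wider interval of -0.16 to 0.32. The spread of *Acan* was the widest of the lecticans, a CV of 33.6% within groups in TPM. In counts scaled to library size it was 28.6%, where counting alone would give a CV of 13.5%.

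*Bcan* and *Ncan* encode the lecticans most abundant in adult and juvenile brain, and the diets lay close in both. *Bcan* lay between 114 and 165 TPM (median 145) in control mice and between 122 and 177 TPM (median 138) in PLX5622 mice. Its log2 difference was -0.02 ± 0.04 (SE, adjusted p = 0.840), and the 95% interval ran from 6.67% lower to 4.14% higher, the narrowest among the 7 genes that passed the filter. *Ncan* lay between 33.2 and 54.6 TPM (median 39.9) in control mice and between 31.6 and 51.2 TPM (median 41.9) in PLX5622 mice, a log2 difference of 0.03 ± 0.06 (adjusted p = 0.809). For both genes the ranges of the diets overlapped almost completely.

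*Vcan* encodes versican, which oligodendrocyte precursors and fibroblasts make more than neurons do. It ranged from 1.23 to 3.94 TPM (median 2.05) in control mice and from 1.45 to 3.20 TPM (median 2.39) in PLX5622 mice. Its mean was higher in PLX5622 mice at 6 of 6 Zeitgeber times, and 18 of 24 PLX5622 libraries exceeded the control median. The log2 difference of 0.14 ± 0.07 did not pass (adjusted p = 0.317), nor did the same gene in the counts with edgeR (0.14, adjusted p = 0.172).

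Of the link proteins, *Hapln1* encodes the one that anchors aggrecan in nets. In TPM it ranged from 10.1 to 23.2 (median 14.9) in control mice and from 12.7 to 27.0 (median 16.2) in PLX5622 mice. The log2 difference was 0.12 ± 0.08 (SE), which did not pass (adjusted p = 0.473). In FPKM the diets lay further apart, from 3.87 to 5.61 FPKM (median 4.63) in control mice and from 4.58 to 6.25 FPKM (median 5.13) in PLX5622 mice.

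On the FPKM scale, here scaled to total counts, 22 of 24 PLX5622 libraries exceeded the control median of *Hapln1*, and 4 exceeded every control library. The mean was higher in PLX5622 mice at 6 of 6 Zeitgeber times, by 0.128 FPKM at ZT2 and 0.849 FPKM at ZT10. With edgeR, which scales libraries otherwise, the log2 difference was -0.0047 at ZT2, 0.02 at ZT14 and 0.20 to 0.27 at the other times. The 6 of 6 thus did not hold there. In TPM 17 of 24 exceeded the control median, and the mean of log2(TPM + 1) was higher at 4 of 6 times. On the counts, the gene passed with edgeR's quasi-likelihood test (log2 difference 0.16, adjusted p = 0.0145, with 6.8% of 18274 genes called) and with DESeq2 (0.16 ± 0.05 SE, adjusted p = 0.0117, with 7.42% of 18270 genes called). It also passed with limma on log2(FPKM + 1) without a filter (0.14 ± 0.04, adjusted p = 0.0202, with 3.12% of 37164 genes called). The FPKM of that fit used edgeR's scaling factors (TMM) in place of total counts alone. The DESeq2 interval ran from 4.95% to 19.1% higher in PLX5622 mice.

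The direction of *Hapln1* was therefore the same on both scales, and the call was not. Its CV within groups was 20.7% in TPM and 9.60% in counts scaled to library size (CPM). The ratio of TPM to FPKM in a library went from 2.30 to 4.49, a 1.95-fold range, where that of *Bcan* varied over a 1.25-fold range. A processed pseudogene, *Gm8546*, lies inside *Hapln1* on the other strand with 4.72 counts per library on average. What makes the TPM of *Hapln1* vary more was not tested.

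**Figure D2:**
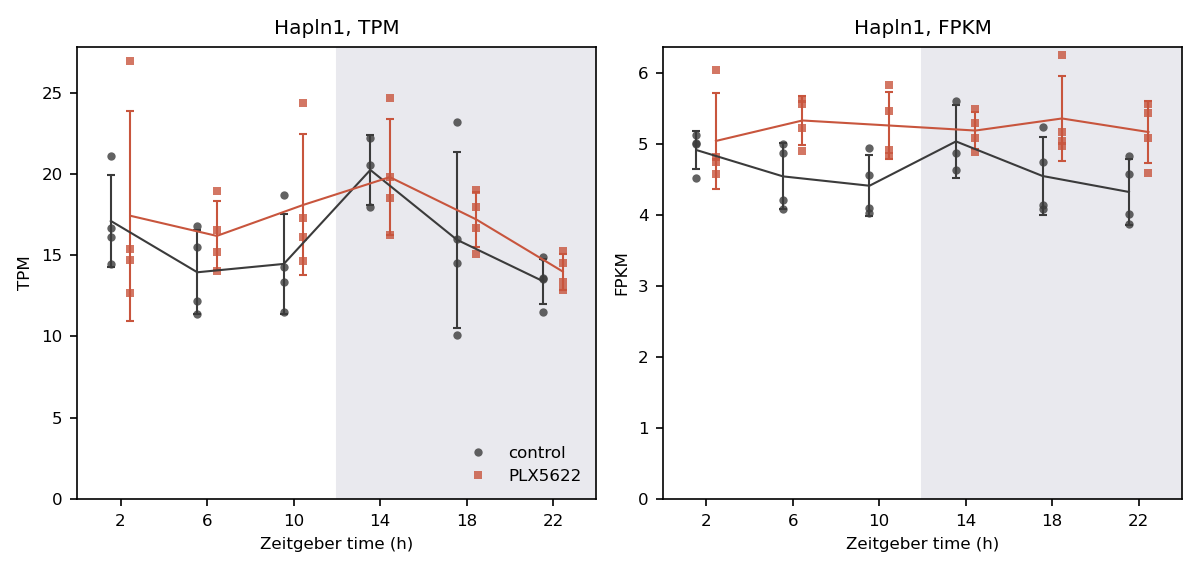
*Hapln1* in each library as TPM (left) and as FPKM computed from counts (right), both axes from 0, against Zeitgeber time in hours with the dark phase shaded, control as grey circles and PLX5622 as red squares, with the mean ± SD of 4 mice (3 in control ZT14). In FPKM, scaled to total counts, the PLX5622 means lie above the control means at 6 of 6 times, though not at ZT2 with edgeR. In TPM they lie above the control means at every time but ZT14, and the points scatter less in FPKM.

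*Hapln4*, also called Bral2, encodes a link protein that partners brevican. It went the other way, with 29.8 to 61.8 TPM (median 41.1) in control mice and 27.9 to 58.5 TPM (median 36.8) in PLX5622 mice. The mean was lower in PLX5622 mice at 6 of 6 Zeitgeber times, and 4 PLX5622 libraries lay below every control library, with 7 of 24 above the control median. The log2 difference of -0.15 ± 0.08 did not pass (adjusted p = 0.368), nor did DESeq2 (-0.15 ± 0.07, adjusted p = 0.169). The 2 link protein genes of the set thus differed in direction, and neither difference passed on TPM.

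*Tnr* encodes tenascin-R, the crosslinker of the lecticans. It ranged from 10.9 to 23.2 TPM (median 15.1) in control mice and from 8.85 to 27.6 TPM (median 16.9) in PLX5622 mice, with 5 PLX5622 libraries above and 1 below every control library. The log2 difference was 0.09 ± 0.10 (adjusted p = 0.716), with an interval from 7.84% lower to 22.5% higher.

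*Ptprz1* encodes the receptor phosphatase RPTPζ, whose secreted form is phosphacan, a chondroitin sulfate proteoglycan of astrocytes and precursor cells that binds tenascin-R. It ranged from 38.8 to 68.5 TPM (median 51.4) in control mice and from 43.8 to 74.6 TPM (median 59.6) in PLX5622 mice. The mean was higher in PLX5622 mice at 5 of 6 times, and 17 of 24 PLX5622 libraries exceeded the control median. With 0.16 ± 0.06 (SE, adjusted p = 0.160, limma) it had the smallest p of the set on TPM, and the 95% interval ran from 2.56% to 21.6% higher. DESeq2 gave 0.12 ± 0.05 (adjusted p = 0.146). Among the astrocyte markers, 1 of 9 (*Gfap*, 149 ± 36.8 TPM in control and 218 ± 45.0 TPM in PLX5622 mice, adjusted p = 5.49e-06) rose with the diet. None of 8 markers of oligodendrocyte precursors passed on TPM, and their part in the *Ptprz1* values was not tested.

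The hyaluronan synthases, which extrude the hyaluronan chain, were the least abundant with *Acan*. *Has2* had 0 to 13 counts per library and none in 4 of 47 libraries, so that a difference between the diets was not resolved. Counting alone would give it a CV of 45.2%, and 70.6% was found within groups in CPM. The difference had a DESeq2 interval of -0.60 to 0.65 on the log2 scale. *Has3* ranged from 0.340 to 1.05 TPM (median 0.472) in control mice and from 0.237 to 0.904 TPM (median 0.545) in PLX5622 mice. Its difference was -0.002 ± 0.04 (adjusted p = 0.989, limma) on log2(TPM + 1), which shrinks it as for *Acan*. DESeq2 gave -0.09 ± 0.10 (SE, adjusted p = 0.720), with an interval of -0.29 to 0.12. The 3′ end of *Has3* overlaps *Chtf8* (39.3 TPM) on the other strand, and reads of the overlap cannot be told apart where counting does not use strand, which is not stated for the counts.

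**Figure D3:**
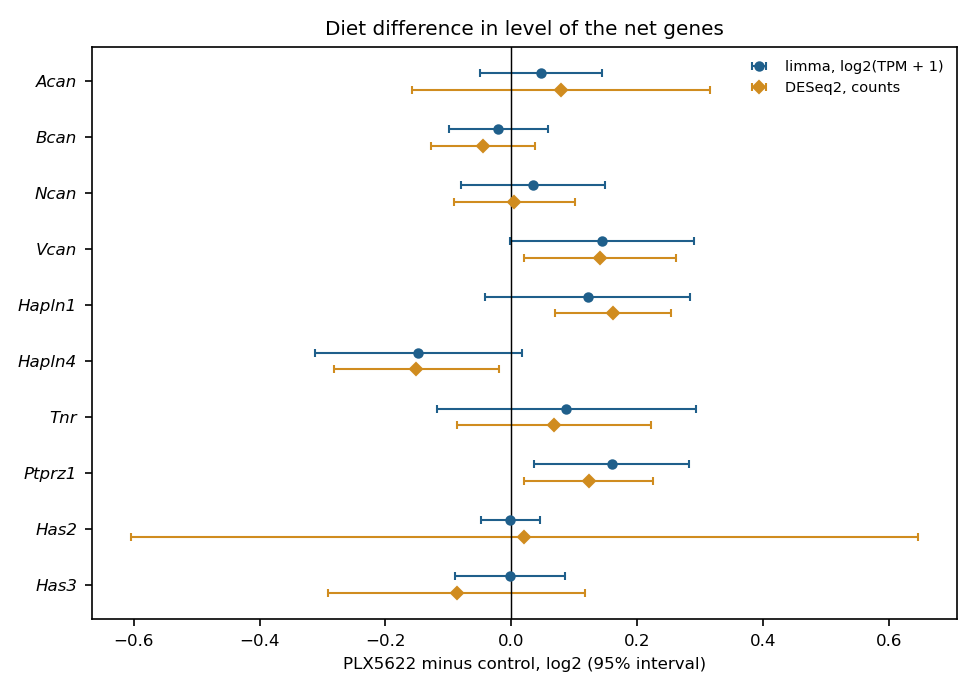
PLX5622 minus control difference of each net gene on a log2 scale, with 95% intervals, from limma on log2(TPM + 1) (blue circles) and from DESeq2 on counts (orange diamonds). The estimates lie between -0.15 and 0.16, and the DESeq2 interval excludes 0 for *Vcan*, *Hapln1*, *Hapln4* and *Ptprz1*, of which only *Hapln1* passed after adjustment. The TPM scale with a pseudocount of 1 shrinks the differences and intervals of *Acan*, *Has2* and *Has3*.

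At single Zeitgeber times, 0 of 60 pairs of net gene and time passed, where 1.06% of the pairs over all genes did. By edgeR on the counts 0 of 60 passed as well, where 1.64% of all pairs did. Of the 60 differences, 35 were higher and 25 lower in PLX5622 mice, between -0.26 (*Hapln4* at ZT6) and 0.34 (*Tnr* at ZT10) on log2(TPM + 1). With edgeR 32 were higher and 28 lower, and the sign turned in 5 of the 60. The edgeR differences ran from -0.80 (*Has2* at ZT6) to 0.71 (*Has2* at ZT18). For *Acan* they were 0.54 at ZT2 and -0.55 at ZT10. Before adjustment, limma's p was under 0.05 for *Bcan* at ZT14 (0.19 ± 0.09 SE), *Ptprz1* at ZT18 (0.30 ± 0.14) and *Has2* at ZT22 (-0.11 ± 0.05). These were 3 of 60 pairs, where 6.98% of all pairs past the filter and 7.33% without it had such a p. After it the smallest was that of *Has2* at ZT22 (adjusted p = 0.562).

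The diets did not overlap in 1 of the 60 pairs, where 4.55% of all pairs of gene and time were without overlap. At ZT6 *Bcan* was at 144 to 148 TPM in the control mice and at 124 to 141 TPM in the PLX5622 mice. At ZT14 it was at 128 to 152 TPM in the control mice and at 142 to 177 TPM in the PLX5622 mice. *Bcan* was higher in PLX5622 mice at 2 times and lower at 4. On the counts edgeR gave -0.08 at ZT6 (unadjusted p = 0.423) and 0.15 at ZT14 (unadjusted p = 0.179). Neither time passed after adjustment.

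Rhythm over 24 h was tested within each diet by JTK_CYCLE, a rank test against cosine curves of 6 phases. None of the net genes passed in control mice, where 0.0754% of 14580 genes did, or in PLX5622 mice, where 0.61% did (0% and 0.127% of 33748 genes without the filter). *Acan* had the smallest exact p in control mice (p = 0.185, adjusted p = 1 without the filter), before *Bcan* (exact p = 0.190, adjusted p = 0.808), and *Hapln1* the smallest exact p in PLX5622 mice (p = 0.0424, adjusted p = 0.423). Unadjusted p-values under 0.05 were found for 0 and 1 of the net genes, and for 1243 and 1615 of all genes in control and PLX5622 mice. A cosine fit gave amplitudes (peak minus daily mean) of 0.03 to 0.17 on the log2 scale in control mice.

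The largest fitted amplitudes on log2(TPM + 1) belonged to *Vcan* in control mice (0.17 ± 0.08 SE, peak at ZT11.8 ± 1.85 h) and to *Hapln1* and *Tnr* in PLX5622 mice (both 0.16). For *Bcan* the fitted peak was at ZT4.85 ± 1.57 h in control mice (amplitude 0.09 ± 0.03) and at ZT13.4 ± 1.59 h in PLX5622 mice (0.08 ± 0.03). For *Ptprz1* it was at ZT7.18 ± 2.86 h and ZT18.7 ± 2.26 h. For *Vcan*, *Hapln4*, *Tnr* and *Has3*, the control and the PLX5622 peak of the same gene lay within 2 h of each other. The standard errors of these peaks were 1.85 to 4.20 h.

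The difference in rhythm between the diets was tested by the interaction of diet with both time terms in limma. No net gene passed and no gene of the 14580 did (0%), with 669 genes at an unadjusted p under 0.05. Of the net genes only *Bcan* had an unadjusted p under 0.05 in limma, while with edgeR and with DESeq2 it was *Acan* and *Ptprz1* that did, and *Bcan* did not. With 3 principal components of the residuals as covariates 1.63% of genes passed, *Bcan* (adjusted p = 0.0247) and *Ptprz1* (adjusted p = 0.0429, and 0.0673 without the filter) among them, and the same change of model called 17.5% of genes for level, *Hapln4* and *Ptprz1* among them. edgeR and DESeq2 called 0 genes for the difference in rhythm, with 1012 and 1075 genes at an unadjusted p under 0.05.

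Across the day the highest group mean fell at ZT14 for 8 of 10 net genes in control mice and for 8 of 10 in PLX5622 mice on the TPM scale. ZT14 was also the time of the highest mean for 42% and 45.7% of all genes past the filter, so a high value at this time was common in these TPM values. In CPM it was the highest time for 7 and 6 of the net genes, and for 27.7% and 27% of all genes averaging 1 CPM or more. *Acan* averaged 0.656 TPM at ZT14 and 0.374 TPM at ZT2 in control mice, and 0.557 and 0.583 TPM in PLX5622 mice, and the control mean at ZT14 rests on 3 mice.

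Dark minus light was the mean of ZT14, ZT18 and ZT22 less that of ZT2, ZT6 and ZT10. No net gene passed in either diet, where 0.302% of genes passed in control mice and 0.343% in PLX5622 mice (0.101% and 0.0859% without the filter). On log2(TPM + 1) *Tnr* had the largest difference in both, 0.25 ± 0.14 (SE, adjusted p = 0.634) in control mice and 0.24 ± 0.14 (adjusted p = 0.558) in PLX5622 mice. In edgeR it was 0.24 in both, with adjusted p = 0.343 and 0.262, beside 0.27 for *Has3* and 0.25 for *Acan* in control mice. For *Bcan* it was -0.10 ± 0.05 (adjusted p = 0.591) in control mice and 0.05 ± 0.05 (adjusted p = 0.729) in PLX5622 mice.

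**Figure D4:**
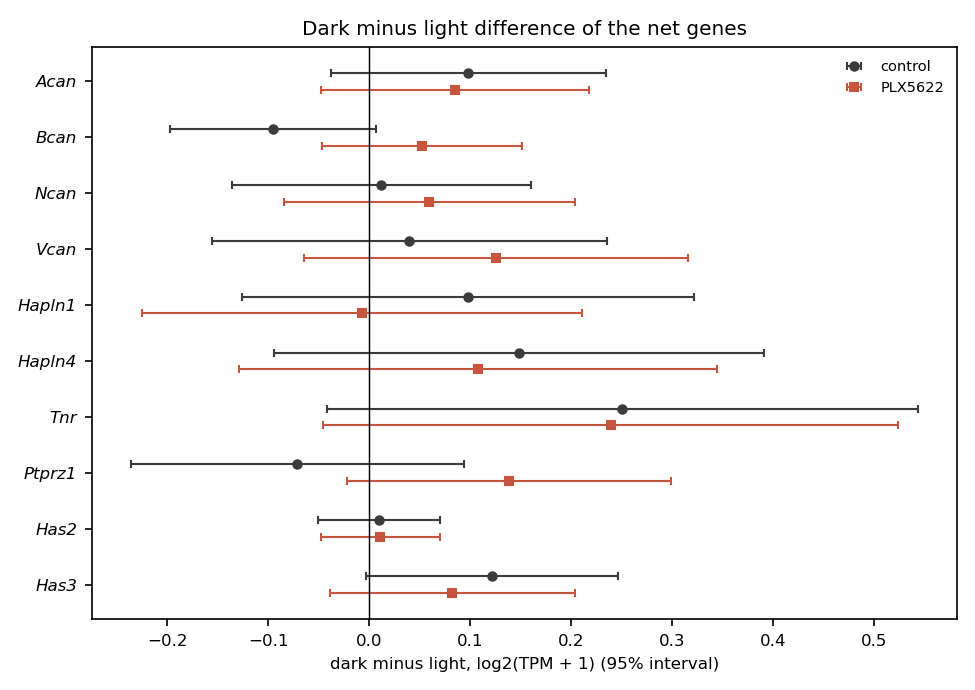
Dark minus light difference of each net gene on the log2(TPM + 1) scale, with 95% intervals, in control (grey circles) and PLX5622 mice (red squares). The estimates lie between -0.10 and 0.25, and every interval includes 0.

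PLX5622 mice kept different amounts of microglial RNA, and the level of the net genes was regressed on it. The measure was the mean log2(TPM + 1) of the 12 microglial markers, with the time terms in the model. No net gene passed, where 0.24% of 14580 genes did (0.0978% without the filter), all of them upward. The 12 markers that form the measure were among the genes tested and tend to rise with it by construction. This share and its direction are therefore no independent background. The slopes lay between -0.05 (*Acan*) and 0.11 (*Hapln1*, interval -0.06 to 0.29) log2 units per unit of the measure. With edgeR they lay between -0.08 and 0.05 for the same genes, and the sign turned for *Bcan*, *Tnr* and *Has3*, 3 of the 9 genes that edgeR tested.

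Mice of the same group differed along the replicate number in their titles, whose meaning is not given. Of the variance within groups on log2(TPM + 1), the number took 56.9% in *Hapln4*, 50.1% in *Acan*, 29.3% in *Tnr*, 27.5% in *Vcan* and 26.6% in *Bcan*. The median over the 14580 genes was 13.6%, and 8.57% is expected from the degrees of freedom. The other net genes lay between 6.78% (*Ncan*) and 17.8% (*Hapln1*). Each number occurs in both diets and at all times, except that number 4 is missing from control ZT14.

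Correlations between the net genes are therefore given with and without the replicate number, as a description, since all genes share library depth and the tissue piece. The first value is that of the deviations from the 12 group means over 47 libraries, and the second has the means of each number removed too. *Acan*, *Hapln4* and *Tnr* varied together both ways (r = 0.81 and 0.60 for *Acan* and *Hapln4*, 0.77 and 0.68 for *Hapln4* and *Tnr*, 0.71 and 0.58 for *Acan* and *Tnr*). So did *Ncan* and *Ptprz1* (0.64 and 0.69) and *Bcan* and *Ptprz1* (0.50 and 0.44). *Vcan* did so with *Hapln4* (0.53 and 0.66) and with *Tnr* (0.52 and 0.65), and *Ncan* with *Tnr* (0.57 and 0.60). *Tnr* and *Ptprz1* (0.51 and 0.77) had the highest value without the number. Other pairs depended on the replicate number, among them *Acan* and *Ptprz1* (0.28 to 0.67). *Bcan* and *Hapln4*, partners at the protein level, went from -0.30 to 0.13, *Acan* and *Bcan* from -0.15 to 0.34, *Hapln1* and *Hapln4* from 0.01 to 0.40, and *Hapln4* and *Ptprz1* from 0.27 to 0.73.

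The genes most like each net gene were sought among 14580 in the deviations from the group means. Of the 30 found, 11 were still among the 3 most alike when the replicate number was removed too. *Hapln4* was closest to *Chgb*, *B4gat1* and *App* (r = 0.95, 0.94 and 0.94), *Tnr* to *Arfgef3*, *Atrn* and *Map1b* (all 0.93), and *Acan* to *Faim2*, *Klhl26* and *Pfkp* (0.88, 0.87 and 0.87). *Ptprz1* was close to *Scd2* and *Ntrk2* (0.91 and 0.89), and *Bcan* to *Ttyh1*, *Fads1* and *Cdc42ep4* (0.86, 0.82 and 0.81). *Ncan* was closest to *Dlgap4*, *Mef2d* and *Rbm15b* (0.90, 0.87 and 0.85). *Vcan* (*Amer1*, *Oser1*, *8030462N17Rik*), *Hapln1* (*Scg3*, *Trak1*, *Lhx2*), *Has3* (*Ripk2*, *Pkib*, *Zbed5*) and *Has2* (*Cramp1l*, *Zfp668*, *Gm17081*) had no gene above 0.72.

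**Figure D5:**
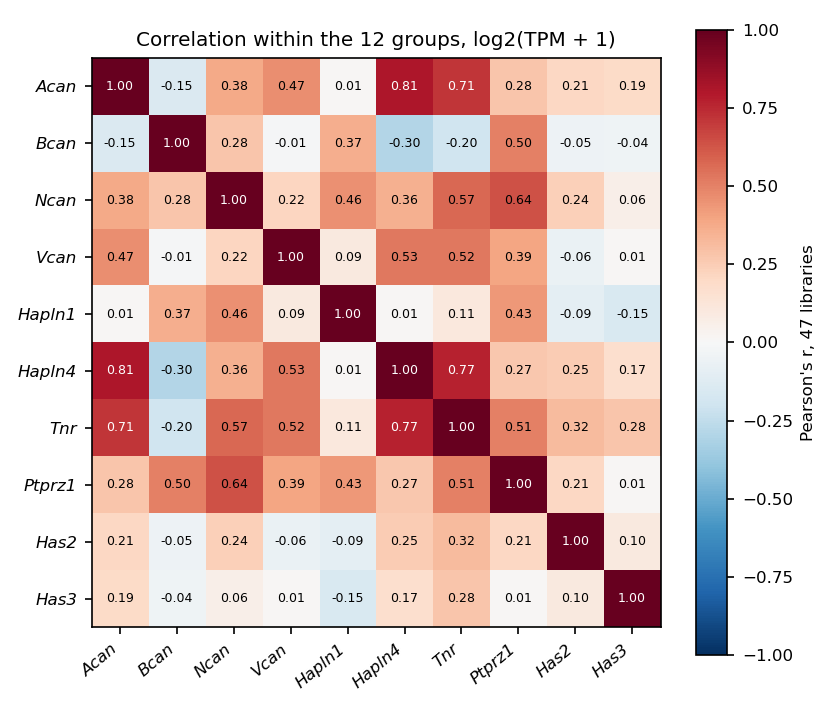
Pearson's r between net genes (rows and columns) of the deviations from the 12 group means on log2(TPM + 1), over 47 libraries and with the replicate number left in, on a color scale from -1 (blue) to 1 (red). *Acan*, *Hapln4* and *Tnr* have the highest values, from 0.71 to 0.81, while without the replicate number *Tnr* and *Ptprz1* had the highest, 0.77. *Bcan* and *Hapln4* have the most negative value, -0.30, which became 0.13 without the replicate number.

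Other genes of the matrix moved little with the diet. Of 22 further net and hyaluronan genes (18 tested), 1 rose and none fell, with a median log2 difference of 0.03. The gene was *Cd44*, a hyaluronan receptor, at 0.995 ± 0.278 TPM in control (SD, n = 23) and 1.28 ± 0.300 TPM in PLX5622 mice (SD, n = 24), a log2 difference of 0.20 ± 0.06 (SE, adjusted p = 0.0331, limma). Tenascin-C (*Tnc*) was under the filter at 0.673 and 0.866 TPM and passed in edgeR on the counts (0.32, adjusted p = 0.0420).

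Of 22 genes that build and sulfate chondroitin chains (20 tested), 1 rose and none fell, with a median of 0.05. *Csgalnact1*, which starts chain synthesis on the linker, went from 6.79 ± 0.686 to 7.59 ± 0.739 TPM (0.14 ± 0.04 SE, adjusted p = 0.0216). Among 16 proteases and inhibitors known to act on the matrix (12 tested), 1 fell and none rose, with a median of -0.02. It was cathepsin S (*Ctss*), which microglia express strongly, with 94.3 ± 9.33 TPM in control and 8.62 ± 4.49 TPM in PLX5622 mice (-3.50 ± 0.17, adjusted p = 4.55e-22). *Adamts9* was under the filter and passed in edgeR (0.28, adjusted p = 0.0201), while *Adamts4*, an aggrecanase, had 9.68 ± 1.39 and 9.46 ± 1.64 TPM (adjusted p = 0.833).

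Genes listed for the cells that most often carry nets did not pass either. None of 10 genes listed for parvalbumin interneurons, some of them shared with other GABAergic neurons, did so on TPM or in edgeR. *Pvalb* had 114 ± 22.1 TPM in control and 107 ± 17.6 TPM in PLX5622 mice (adjusted p = 0.508). None of 7 excitatory neuron, 8 oligodendrocyte, 8 endothelial and mural and 6 fibroblast markers passed on TPM, and of 7 striatal markers none did. Of 8 choroid plexus markers 3 rose (*Ttr*, *Kl* and *Sostdc1*), with a summed level of 71 to 1197 TPM (median 502) in control mice and 151 to 1280 TPM (median 812) in PLX5622 mice, and its part in the net gene values was not tested.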

How the data were processed

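Cortex RNA was sequenced from 47 male mice (12 groups of diet and Zeitgeber time). The authors mapped reads to GRCm38.p6 with STAR and computed TPM with Salmon and a Gencode annotation. The second table that the authors deposited is named for FPKM but holds whole-number counts per gene without normalization. The submitters' processing notes name STAR, featureCounts, edgeR, limma and mm10, and the strand setting of the counts is not given in the sources used here. Positions and exon lengths came from GENCODE M21 (99.7% of TPM and 99.9% of count identifiers matched), promoter sequences from RefSeq.

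Groups were taken from the sample titles. Levels were compared with limma 3.58.1 in R 4.3.3 on log2(TPM + 1), keeping genes that averaged 1 TPM or more. Diet with the cosine and sine of time follows the study's formula, the log scale and filter were chosen here, and its sequencing covariates were not used here. Fits without that filter gave *Acan*, *Has2* and *Has3*. FPKM, edgeR 4.0.16 and DESeq2 1.42.0 on the counts were alternatives. Rhythm was tested with JTK_CYCLE (own code, period 24 h, 6 phases), whose p is the tail of the rank statistic times the 6 phases. Counting 2 tails for each phase was also run, and the choice between them was made after the first counts of cycling genes were seen. P-values were adjusted by Benjamini and Hochberg at 0.05. Tests were tried on simulated data. Figures used Python 3.11.15 and matplotlib 3.10.9.

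The net genes, the other lists and the tests were chosen with earlier results of these data known. Named genes were the net genes, *Csf1r*, genes of other lists past the threshold for diet (at most 6 per list), the 3 genes most like each net gene (1 of them is not reported here) and the link genes beside the lecticans. *Pvalb*, *Adamts4*, *Tnc*, *Adamts9*, *Slc17a7* and *Camk2a* were named outside this rule after their values were seen. Within groups the lowest chi-square over its degrees of freedom was 4.56 in 69 pairs of libraries, so no library repeated another of its group. Pairs from different groups were not compared in this way.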

Additional observations from a re-analysis of the deposited data

How the results depend on the processing

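In fits that each left out 1 library (47, or 23 control and 24 PLX5622 libraries for the rhythm within a diet and the slope), the count of net genes past the threshold was 0 to 0 for every comparison. The count did change with the measure of the diet difference. It was 1 with edgeR, 1 with DESeq2 and 1 with log2(FPKM + 1), each time *Hapln1*, and the FPKM call of *Hapln1* held in all 47 leave-one-out fits, a check added after the data were seen (log2 difference 0.13 to 0.15, adjusted p 0.00721 to 0.0363). With 3 principal components of the residuals as covariates 2 net genes passed for level (*Hapln4*, -0.15, adjusted p = 0.00307, and *Ptprz1*, 0.16, adjusted p = 0.00239) and 2 for the difference in rhythm (*Bcan*, adjusted p = 0.0247, and *Ptprz1*, adjusted p = 0.0429), with 2558 and 237 genes called in all. By construction these components leave the difference as it is and shrink the spread it is set against.

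For level and dark minus light, the net genes with a sign that changed had differences near 0. *Has2* was at 0.018 with edgeR, 0.021 with DESeq2 and 0.012 with a pseudocount of 0.1 for level, *Ncan* at -0.0026 in control and *Hapln1* at 0.021 in PLX5622 mice for dark minus light with edgeR. At single times edgeR also turned the sign of *Has3* (ZT18, 0.03 to -0.14, and ZT2, 0.09 to -0.05), *Tnr* (ZT14, 0.03 to -0.06), *Ptprz1* (ZT10, 0.04 to -0.03) and *Hapln1* (ZT14, -0.04 to 0.02). Leaving out 1 library, level lay between -0.011 and 0.0066 for *Has2* and -0.016 and 0.017 for *Has3*. Dark minus light lay between -0.028 and 0.069 (*Ncan*), -0.0020 and 0.10 (*Vcan*) and -0.0025 and 0.025 (*Has2*) in control mice, and between -0.049 and 0.066 (*Hapln1*) and -0.0050 and 0.025 (*Has2*) in PLX5622 mice.

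Over all genes, the diet called 298 (mean of at least 5 TPM), 923 (FPKM, 413 higher and 510 lower), 1243 (edgeR) and 1355 (DESeq2), beside 503 (127 higher and 376 lower). JTK_CYCLE called 11 and 89 genes in control and PLX5622 mice, 0 and 43 without the filter, and 2 and 38 with 2 tails for each phase. The cosine test called 36 and 135 with limma and 270 and 405 with edgeR. edgeR called 239 and 235 for dark minus light beside 44 and 50, and 59 for the slope beside 35. No net gene passed in any of these tests by JTK_CYCLE, by cosine, of dark minus light or of the slope.

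Replicate numbers were not taken as pairs, and the main tests left them out. Over all genes the mean correlation between same-numbered libraries of different groups was low at 0.05, with a lowest value of -0.25. Between libraries with other numbers the mean was -0.02, so same-numbered libraries were slightly more alike. The number nonetheless took up to 56.9% of the variance of a net gene within groups. With it as a block 0 net genes passed, *Hapln4* had adjusted p = 0.160 and *Ptprz1* adjusted p = 0.143 for level, 578 genes were called for diet, and 121 and 81 for dark minus light. Correlations without the number were added after the data were seen. Depth limits *Has2* most, while in *Acan* and *Has3* the spread within groups (28.6% and 25.8% in CPM) exceeded that of counting (13.5% and 14.4%).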
